A study of Mus musculus with 30 samples.

Results

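Clec4a1, Clec4a3, Clec4a2, Clec4n, Clec4d, Clec4e, Clec2d, Clec12a and Clec7a are myeloid C-type lectin genes of distal mouse chromosome 6, and they were followed here in J774A.1 cells, a mouse macrophage-like line, by RNA-seq. These 9 genes were taken by symbol from the gene table of all J774 libraries, which lists 54146 genes. The set was selected on the lower counts of Clec4a1 in KO than in WT clones, so KO against WT values are described without a test. The libraries came from 3 WT clones (WT1, WT2 and WT3) and 2 KO clones (KO1 and KO2), each untreated (UT) or given 100 ng/mL interferon gamma (IFNG) for 4 h, with 3 libraries for each clone and treatment and 30 in all. In the KO clones Cas9 and a pair of guide RNAs had removed both copies of a B2_Mm2 short interspersed element from the first intron of Dicer1 on chromosome 12. All 5 clones were isolated by limiting dilution, the WT clones had not been through electroporation, and each KO line is a single clone, so a trait of 1 clone and an effect of the deletion cannot be told apart with this number of clones.

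C-type lectin receptors are single-pass membrane proteins whose extracellular domain binds sugars, lipids or protein ligands. Dectin-1, the product of Clec7a, binds fungal beta-glucan and signals through Syk from its own cytoplasmic tail. Dectin-2 (Clec4n), MCL (Clec4d) and Mincle (Clec4e) signal through the Fc receptor gamma chain, encoded by Fcer1g, and recognise fungal mannans or mycobacterial glycolipids. DCIR, the product of Clec4a2, and MICL, the product of Clec12a, carry an inhibitory tyrosine motif that recruits phosphatases, while Clec4a1 and Clec4a3 encode close relatives of DCIR. Clec2d encodes Clr-b, a surface ligand for the inhibitory NK cell receptor Klrb1b. IFNG induces genes in macrophages in part through IRF factors, which bind ISRE elements.

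The genes lie in 2 groups on mm10. Clec4a1 (chr6:122921848-122934619), Clec4a3 (chr6:122952515-122969875), Clec4a2 (chr6:123106428-123143999), Clec4n (chr6:123229843-123247021) and Clec4d (chr6:123262111-123275265) on the plus strand and Clec4e (chr6:123281789-123289870) on the minus strand form the Clec4 group. Clec2d (chr6:129180615-129186534) and Clec12a (chr6:129342691-129365303) on the plus strand and Clec7a (chr6:129461591-129472779) on the minus strand form the other, 6259 kb further along. RefSeq promoters, from 250 bases before to 50 bases after a start site on GRCm38.p6, were at hand for 8 of the 9 genes, in 10 windows, and Clec4n had none. Both strands were searched for the ISRE core letters, GAAA followed after any 2 bases by another GAAA, which 3.44% of 32851 mouse promoters hold. They were found in the windows of Clec2d, at position -189 from the start site, and Clec4d, at 0. A search for GAGGAAG, the core letters of the myeloid factor PU.1, which 13.6% of these promoters hold, matched Clec4a1, at -188, Clec4d, at -241, and Clec12a, at -61. The next lines show the Clec2d and Clec4d windows, with the ISRE core letters in capitals, because they belong to the gene with the largest IFNG response of the set and to a gene without a rise. The coordinates are chr6:129180365-129180664 and chr6:123261857-123262156, both on the plus strand.
Clec2d: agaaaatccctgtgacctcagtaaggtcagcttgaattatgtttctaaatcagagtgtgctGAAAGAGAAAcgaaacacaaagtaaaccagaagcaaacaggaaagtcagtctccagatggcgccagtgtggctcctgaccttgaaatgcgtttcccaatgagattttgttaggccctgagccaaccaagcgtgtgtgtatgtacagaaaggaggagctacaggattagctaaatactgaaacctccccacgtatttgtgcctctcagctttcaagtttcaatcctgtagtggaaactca
Clec4d: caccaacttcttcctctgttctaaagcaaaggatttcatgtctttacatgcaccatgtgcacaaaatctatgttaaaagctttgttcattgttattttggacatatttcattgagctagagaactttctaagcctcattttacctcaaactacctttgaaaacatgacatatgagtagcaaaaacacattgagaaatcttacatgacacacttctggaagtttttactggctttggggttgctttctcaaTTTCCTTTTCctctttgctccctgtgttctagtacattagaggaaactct

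The promoters of Clec4a1 (chr6:122921598-122921897) and Clec4a3 (chr6:122952394-122952693), both on the plus strand, are shown because these neighbouring genes were both lower in the KO clones. They shared a run of 17 identical bases, given in capitals, against at most 10 bases for the other gene pairs of the 28 that could be compared. The run begins at -222 from the start site in Clec4a1 and at -55 in Clec4a3. Clec4d and Clec7a, also lower in the KO clones, shared at most 10 and 9 bases with Clec4a1. A part of the run in these levels was not tested. Neither window held ISRE core letters.
Clec4a1: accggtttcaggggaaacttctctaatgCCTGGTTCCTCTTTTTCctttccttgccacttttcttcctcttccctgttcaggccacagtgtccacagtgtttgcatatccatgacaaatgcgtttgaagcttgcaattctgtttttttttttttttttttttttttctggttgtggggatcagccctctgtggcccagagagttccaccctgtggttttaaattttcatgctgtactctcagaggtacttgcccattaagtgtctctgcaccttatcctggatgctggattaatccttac
Clec4a3: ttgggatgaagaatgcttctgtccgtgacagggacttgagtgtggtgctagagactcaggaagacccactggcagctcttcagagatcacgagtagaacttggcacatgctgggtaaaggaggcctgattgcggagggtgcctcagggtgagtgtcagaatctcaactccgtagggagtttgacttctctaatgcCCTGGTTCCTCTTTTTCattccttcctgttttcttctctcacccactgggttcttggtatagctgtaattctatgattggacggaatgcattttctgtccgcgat

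Each library held between 15566122 and 37992642 counts, and values below are counts per 1000000 counts (CPM) after TMM scaling unless a length is named. Columns of the table do not carry replicate numbers, so libraries are named by column order within their group, and p-values measure the spread between cultures or preparations that the labels do not tell apart. The deleted element is no row of the gene table. Dicer1, the gene around it, ran untreated from 96.8 to 130.2 CPM in the WT libraries, from 70.5 to 72.99 CPM in KO1 and from 101 to 108 CPM, within the WT range, in KO2. It ran after IFNG from 132 to 171 CPM in the WT libraries, from 71.5 to 80.9 CPM in KO1 and from 96.9 to 105 CPM in KO2. All 10 macrophage markers, Adgre1, Csf1r and Lyz2 among them, had a mean of at least 1 CPM. Their summed level ran from 4121 to 5897 CPM in WT libraries and from 5969 to 7042 CPM in KO libraries. The 6 NK cell markers summed to at most 1.29 CPM, with Ncr1, Prf1 and Gzma at 0 counts in every library. The 6 T cell markers summed to at most 9.39 CPM, the 5 B cell markers to 0.380 CPM, the 6 dendritic cell markers to 6.14 CPM and the 6 neutrophil markers to 3.48 CPM.

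All 9 lectin genes had reads in every library. Per kilobase of exon, averaged over the 15 untreated libraries, Clec4d was highest at 121 CPM per kilobase, followed by Clec4e at 50.4, Clec4a1 at 35.4 and Clec4a3 at 16.00. Clec12a stood at 11.6, Clec7a at 8.27 and Clec4n at 7.42 CPM per kilobase. The lowest were Clec2d at 2.56 and Clec4a2 at 2.34 CPM per kilobase. After IFNG, Clec4a1 at 57.2 stood above Clec4e at 39.2, and Clec2d at 20.1 CPM per kilobase stood above every member but Clec4d, Clec4a1 and Clec4e. Uniquely aligned fragments were counted on the sense strand, and no exon of these genes overlapped an exon of another gene. Stretches of 100 bases shared with transcripts of other genes were found for Clec4a2 only, with 2.14% of its stretches in Clec4a4.

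**Figure D1:**
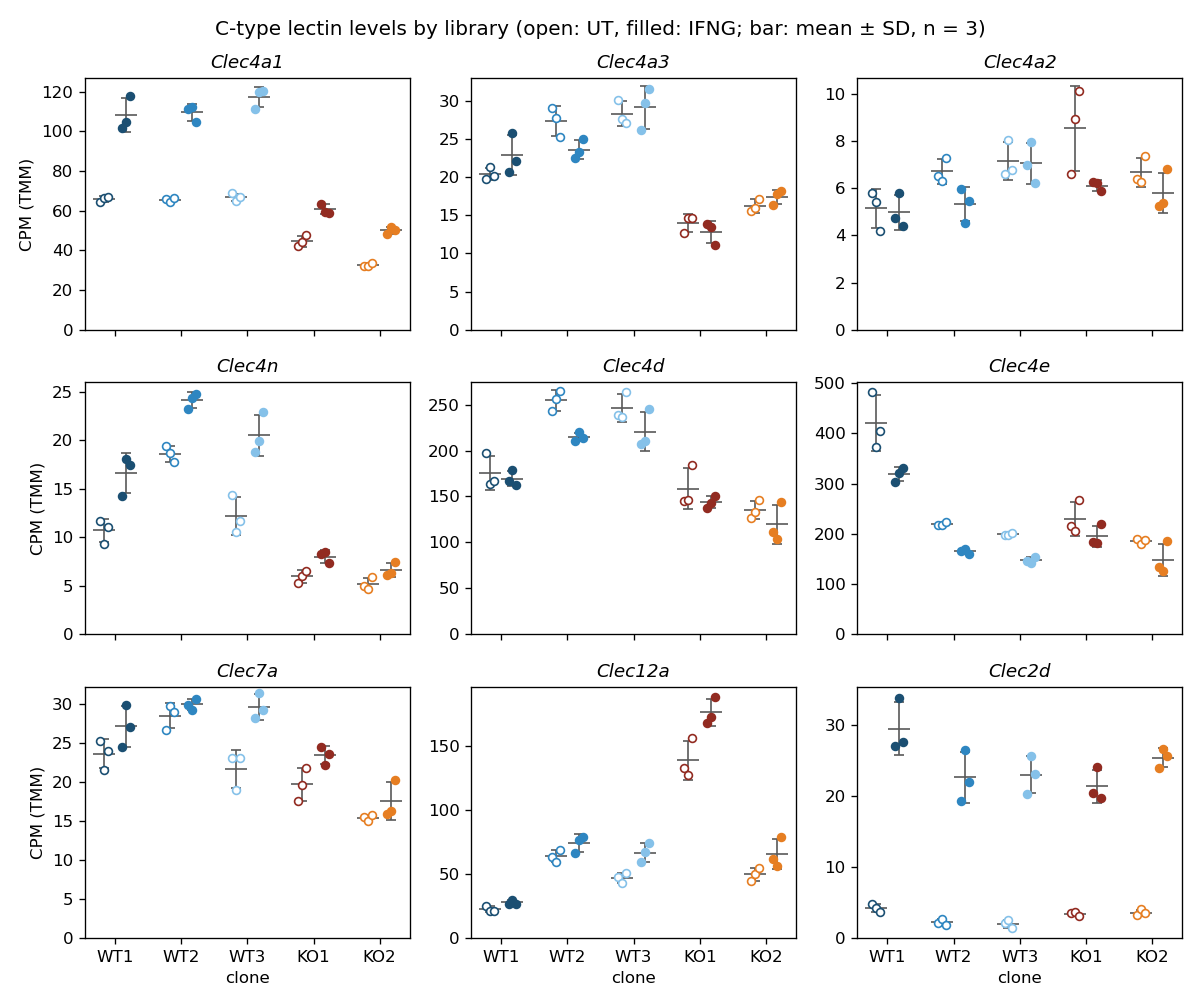
Level of each lectin gene in CPM (y axis, from 0, scaled per gene) in the 30 libraries by clone (x axis), open points UT and filled points IFNG, with the mean ± SD of 3 libraries. Clec2d rose in every clone, Clec4a1 and Clec4n were lower in both KO clones, Clec12a was highest in KO1 and Clec4e was highest in WT1.

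The response of each clone to IFNG was then tested, with edgeR's quasi-likelihood test adjusted over all genes. Among the 9 genes the test called 5 in WT1, 7 in WT2, 6 in WT3, 6 in KO1 and 5 in KO2, beside 21.2%, 34.5%, 36.1%, 29.4% and 27.1% of all genes tested in these clones. Clec2d, Clec4a1, Clec4n and Clec12a rose in all 5 clones, Clec7a rose in WT3 and KO1, and Clec4e fell in WT1, WT2, WT3 and KO2. The median log2 fold change over the 9 genes lay between 0.08 and 0.46 across clones, and that over all genes tested between -0.01 and 0.0019.

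Clec2d, the Clr-b ligand, had the largest response of the set. Untreated libraries held 4.81, 4.22 and 3.63 CPM in WT1, 2.19, 2.74 and 1.82 CPM in WT2, 2.17, 2.49 and 1.39 CPM in WT3, 3.56, 3.63 and 3.12 CPM in KO1 and 3.23, 4.06 and 3.46 CPM in KO2. After IFNG they held 26.97, 33.8 and 27.6 CPM in WT1, 19.3, 26.5 and 21.97 CPM in WT2, 20.3, 25.6 and 23.1 CPM in WT3, 20.4, 24.03 and 19.7 CPM in KO1 and 23.9, 26.5 and 25.6 CPM in KO2. Every treated library stood above every untreated one, and the lowest treated value was 19.3 CPM against a highest untreated value of 4.81 CPM. The log2 fold change with its SE was 2.79 ± 0.12 in WT1, 3.30 ± 0.14 in WT2, 3.48 ± 0.14 in WT3, 2.66 ± 0.11 in KO1 and 2.82 ± 0.09 in KO2, at most adjusted p = 3.89e-10 by edgeR. On the scale of the fold this is 6.32 to 11.1. As printed above, its promoter window holds the ISRE core letters, and so does that of Clec4d, which did not rise in any clone.

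Clec4a1 rose in all 5 clones from levels that differed between WT and KO. Untreated libraries held 64.3, 66.6 and 67.00 CPM in WT1, 65.8, 64.6 and 66.3 CPM in WT2, 68.7, 65.04 and 66.7 CPM in WT3, 42.2, 44.3 and 47.7 CPM in KO1 and 32.2, 31.9 and 33.7 CPM in KO2. After IFNG they held 102, 105 and 118 CPM in WT1, 111, 112 and 105 CPM in WT2, 111, 119.6 and 120.4 CPM in WT3, 63.5, 59.6 and 58.8 CPM in KO1 and 48.3, 51.8 and 50.4 CPM in KO2. Within each clone the treated libraries stood above the untreated ones, and every KO library after IFNG stood below every untreated WT library. The log2 fold change was 0.70 ± 0.07 in WT1, 0.76 ± 0.04 in WT2, 0.82 ± 0.05 in WT3, 0.47 ± 0.06 in KO1 and 0.62 ± 0.06 in KO2, with adjusted p at most 3.21e-05 by edgeR. In fold these were between 1.39 and 1.76. Clec4a3, its neighbour and relative, did not follow it. Its mean over the untreated libraries ran from 13.998 ± 1.14 CPM (SD, n = 3) in KO1 to 28.3 ± 1.62 CPM in WT3, and its log2 fold change was 0.15 ± 0.09 in WT1, -0.20 ± 0.07 in WT2, 0.04 ± 0.07 in WT3, -0.10 ± 0.09 in KO1 and 0.10 ± 0.07 in KO2. The fall in WT2 passed (adjusted p = 0.0246 by edgeR), and it did not pass without UT library 1 (0.131), UT library 2 (0.0753), IFNG library 1 (0.108) or IFNG library 2 (0.0589) with DESeq2 (0.0845) or in 1 fit over all libraries (0.0650), each value an adjusted p.

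Of the receptors that signal through the Fc receptor gamma chain, Clec4n rose and Clec4e fell. Untreated libraries held 11.7, 9.34 and 11.1 CPM in WT1, 19.4, 18.7 and 17.8 CPM in WT2, 14.4, 10.6 and 11.7 CPM in WT3, 5.26, 6.04 and 6.55 CPM in KO1 and 4.997, 4.68 and 5.85 CPM in KO2 for Clec4n. After IFNG they held 14.3, 18.1 and 17.5 CPM in WT1, 23.2, 24.4 and 24.8 CPM in WT2, 18.8, 19.9 and 22.9 CPM in WT3, 8.23, 8.50 and 7.28 CPM in KO1 and 6.09, 6.35 and 7.39 CPM in KO2. Treated and untreated libraries did not overlap within any clone. The log2 fold change of Clec4n was 0.63 ± 0.11 in WT1, 0.39 ± 0.07 in WT2, 0.74 ± 0.10 in WT3, 0.45 ± 0.11 in KO1 and 0.33 ± 0.12 in KO2, with adjusted p from 1.33e-05 to 0.0460 by edgeR. The call in KO2, the weakest, did not hold without UT library 1 (adjusted p = 0.128), UT library 2 (0.175), IFNG library 2 (0.0819) or IFNG library 3 (0.124), or with DESeq2 (0.0890).

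Clec4e, the Mincle gene, moved the other way. Untreated libraries held 483, 374 and 404 CPM in WT1, 217, 217 and 222 CPM in WT2, 197, 197 and 202 CPM in WT3, 215, 205 and 268 CPM in KO1 and 189, 179.8 and 188 CPM in KO2. After IFNG they held 303, 322 and 331 CPM in WT1, 165, 170.0 and 160.3 CPM in WT2, 146, 142 and 154 CPM in WT3, 183, 182 and 219 CPM in KO1 and 133, 125 and 185 CPM in KO2. Treated libraries stood below all untreated ones in WT1, WT2 and WT3, and 1 treated library overlapped the untreated ones in each KO clone. The log2 fold change was -0.41 ± 0.08 in WT1, -0.39 ± 0.04 in WT2, -0.42 ± 0.04 in WT3, -0.20 ± 0.09 in KO1 and -0.34 ± 0.10 in KO2. It passed in the 3 WT clones, with adjusted p at most 0.00255 by edgeR, and in KO2 (adjusted p = 0.0230), but not in KO1 (adjusted p = 0.124). The KO2 call did not hold with DESeq2 (adjusted p = 0.206) or without UT library 1 (0.0760), UT library 3 (0.0521), IFNG library 1 (0.0714) or IFNG library 2 (0.101). In KO1 the gene passed without UT library 2 (0.0423) or IFNG library 3 (0.0132). Clec4d, whose product pairs with Mincle, had log2 fold changes of -0.07 ± 0.08 in WT1, -0.23 ± 0.04 in WT2, -0.15 ± 0.06 in WT3, -0.11 ± 0.08 in KO1 and -0.19 ± 0.09 in KO2, and it passed in WT2 alone (adjusted p = 3.50e-05 by edgeR). It also passed in WT3 without IFNG library 3 (0.00135) and in KO2 without IFNG library 3 (3.73e-04).

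Clec7a had smaller log2 fold changes than Clec4n in all 5 clones, and Clec12a in 4 of them. The log2 fold change of Clec7a, the Dectin-1 gene, was 0.19 ± 0.09 in WT1, 0.08 ± 0.06 in WT2, 0.46 ± 0.08 in WT3, 0.28 ± 0.08 in KO1 and 0.16 ± 0.09 in KO2. It passed in WT3 (adjusted p = 8.42e-05 by edgeR), where UT libraries held 23.1, 18.9 and 23.05 CPM and IFNG libraries 28.2, 31.4 and 29.3 CPM, and in KO1 (adjusted p = 0.0177). The KO1 call did not hold without UT library 1 (0.0737) or IFNG library 1 (0.0738). For Clec12a, the MICL gene, it was 0.30 ± 0.09 in WT1, 0.24 ± 0.06 in WT2, 0.51 ± 0.07 in WT3, 0.37 ± 0.07 in KO1 and 0.40 ± 0.10 in KO2, with adjusted p from 1.55e-05 to 0.0267 by edgeR. Its call in WT1 did not hold without UT library 2 (0.134), UT library 3 (0.125) or IFNG library 2 (0.106), and that in KO2 without UT library 1 (0.0541) or with DESeq2 (0.0624). That in WT2 was lost in 1 fit over all libraries (0.126). Clec4a2, the gene of the inhibitory DCIR, had values of -0.06 ± 0.15 in WT1, -0.31 ± 0.13 in WT2, -0.01 ± 0.12 in WT3, -0.46 ± 0.14 in KO1 and -0.23 ± 0.12 in KO2 and passed in KO1 alone (adjusted p = 0.0240 by edgeR), a call lost without UT library 2 (0.0654) or UT library 3 (0.102), or without either of IFNG library 1 and IFNG library 2 (0.0545). It passed in WT2 without IFNG library 1 (0.0398) and in KO2 without IFNG library 3 (0.0377).

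**Figure D2:**
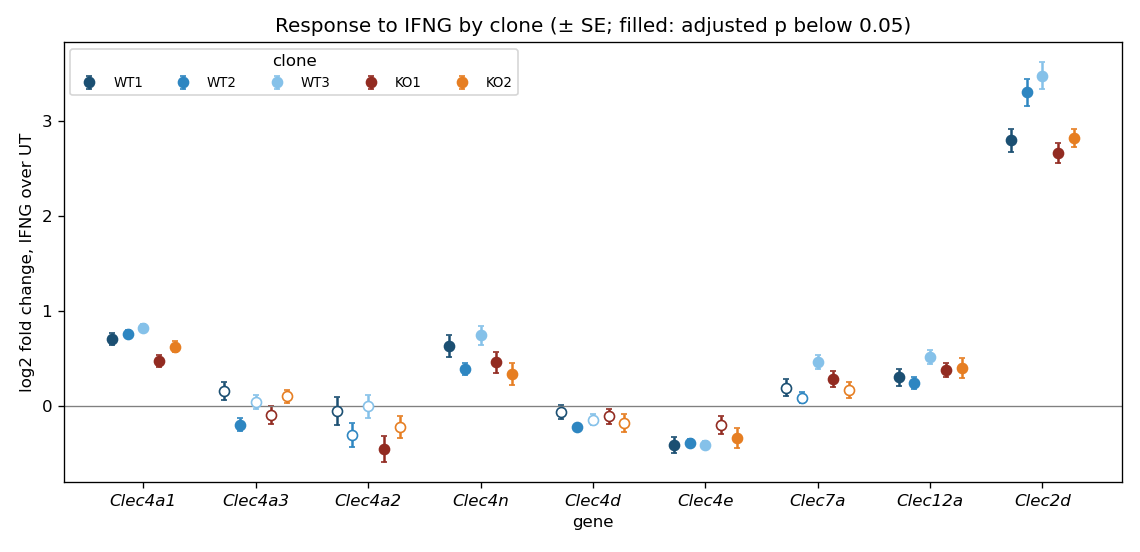
Log2 fold change of IFNG over UT libraries (y axis) for each lectin gene (x axis) in the 5 clones, ± SE, 3 libraries a group, filled where the edgeR adjusted p was below 0.05. Clec2d lies between 2.66 and 3.48, and Clec4e is the member that lies below 0 in all clones with a call in 4 of them.

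Over all clones together, in a fit without a clone term, IFNG against UT called 2 of the 9 genes, beside 34.3% of all genes tested. These were Clec2d, with a log2 fold change of 2.95 ± 0.13 (adjusted p = 3.25e-19 by edgeR), and Clec4a1, with 0.69 ± 0.16 (adjusted p = 8.74e-04). With a clone term 8 were called, all but Clec4a3, and 8 also with the libraries of a clone summed first. Without a clone term, leaving out WT1 brought the count to 4, with Clec4e (adjusted p = 7.91e-04) and Clec4a2 (0.0284), leaving out WT3 to 3, with Clec4a2 (0.0496), and leaving out KO2 to 3, with Clec7a (0.0248). With clones as the unit, the mean of 5 responses on log2(CPM + 0.5) was 2.82 ± 0.32 (SD, n = 5) for Clec2d, 0.66 ± 0.14 for Clec4a1, 0.49 ± 0.18 for Clec4n and -0.36 ± 0.08 for Clec4e, each with the same sign in 5 of 5 clones. An exact two-sided sign-flip permutation test then gave p = 0.0625 for each, the smallest p that 5 clones allow.

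The size of the response was compared between clones next, since the deposited design crosses genotype with treatment. A test of all clone terms called Clec4a1 alone (adjusted p = 0.0129 by edgeR), beside 3.68% of all genes tested. Clec2d did not pass it (adjusted p = 0.0875 by edgeR), but did with DESeq2 (0.00602) and with edgeR without a filter (8.87e-05). By genotype the response of Clec4a1 in KO minus that in WT was -0.22 ± 0.05 on the log2 scale (adjusted p = 0.0209 by edgeR), beside 0.341% of all genes called lower and 1.02% called in all, and each KO response lay below each WT response. The difference uses the KO and WT counts of Clec4a1 on which the set was chosen, so its p is not independent of that choice. The call by genotype also rested on single clones. Without WT2 the adjusted p was 0.125, without WT3 it was 0.174 and without KO1 it was 0.597, with a difference of -0.14 in the last. The test over all clones was also lost without WT3 (0.130) or KO1 (0.530). With clones as the unit, an exact two-sided permutation test of 3 WT against 2 KO responses gave p = 0.10 for Clec4a1, the smallest it allows. Clec4e had the same p by this test, with responses of -0.23 in KO1, -0.35 in KO2 and -0.43 to -0.39 in the WT clones. Clec2d had a larger difference by genotype than Clec4a1, -0.39 ± 0.15, which did not pass (adjusted p = 0.354 by edgeR). It passed without a filter (0.0359) and without WT1 (0.0121), whose untreated level of Clec2d was the highest of the clones. For the other 7 genes the difference ranged from -0.23 for Clec4a2 to 0.13 for Clec4e, and none passed.

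Most of the lectin genes differed between clones of the same genotype. Among the WT clones the test called 8 of 9 genes untreated, beside 59.5% of all genes tested, and 7 after IFNG, beside 52.1%. Between KO1 and KO2 it called 5 untreated, beside 23.2%, and 5 after IFNG, beside 14.9%. Clec4a1 was the exception among WT clones, at 65.96 ± 1.47, 65.5 ± 0.866 and 66.8 ± 1.82 CPM (SD, n = 3) in untreated WT1, WT2 and WT3 (adjusted p = 0.789 by edgeR). After IFNG its WT means were 108 ± 8.49, 109 ± 4.29 and 117 ± 4.97 CPM (adjusted p = 0.209 by edgeR), and without IFNG library 3 of WT1 they differed (0.0227). Between the KO clones Clec4a1 did differ, KO1 being higher than KO2 by 0.45 ± 0.06 untreated (adjusted p = 6.16e-05) and 0.28 ± 0.06 after IFNG (adjusted p = 0.00520) on the log2 scale by edgeR.

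Some of these calls rested on 1 library. Among WT clones, edgeR's adjusted p of Clec4a2 was 0.0581 without UT library 3 of WT1 and 0.0809 without IFNG library 2 of WT3. That of Clec4a3 was 0.0502 without IFNG library 3 of WT3, and without IFNG library 2 of WT1 Clec2d no longer differed after IFNG (0.105) and Clec7a did (0.0479). Between KO1 and KO2, Clec4a3 was lower in KO1 by 0.22 untreated (adjusted p = 0.0462), and this was lost without UT library 1 of KO1 (0.159), UT library 3 of KO1 (0.0574), UT library 2 of KO2 (0.0911) or UT library 3 of KO2 (0.189). Clec4e was higher in KO1 by 0.30 ± 0.07 untreated and 0.41 ± 0.12 after IFNG, and the latter call was lost without IFNG library 3 of KO1 (0.107), IFNG library 1 of KO2 (0.0849) or IFNG library 2 of KO2 (0.129). With DESeq2 neither Clec4e call held (0.0866 untreated and 0.211 after IFNG), nor did that of untreated Clec4a3 (0.104). After IFNG Clec4a3 was lower in KO1 by 0.44 ± 0.09 (adjusted p = 0.00423 by edgeR), a call that held without any single library. Clec7a was higher in KO1 by 0.34 ± 0.08 and 0.44 ± 0.09, and these calls held without any single library. Calls were gained for Clec4d after IFNG without IFNG library 3 of KO2 (2.57e-04), for Clec4n without the same library (0.0369), for Clec2d without IFNG library 2 of KO1 (0.0275), for untreated Clec4a2 without UT library 1 of KO1 (0.00497) and for untreated Clec4d without UT library 1 of KO1 (0.0272), UT library 2 of KO1 (0.0264) or UT library 3 of KO2 (0.0311).

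The widest span over clones was that of Clec12a. Untreated libraries held 25.2, 20.9 and 21.3 CPM in WT1, 62.96, 59.5 and 68.9 CPM in WT2, 47.9, 42.7 and 50.7 CPM in WT3, 133, 127 and 156 CPM in KO1 and 44.5, 49.99 and 54.5 CPM in KO2. After IFNG they held 26.97, 29.8 and 26.8 CPM in WT1, 66.5, 76.9 and 79.1 CPM in WT2, 59.3, 67.02 and 74.1 CPM in WT3, 168, 172 and 188 CPM in KO1 and 62.04, 56.4 and 79.1 CPM in KO2. The means of KO1 and WT1 were 6.17-fold apart untreated and 6.32-fold apart after IFNG, while KO2 lay among the WT clones and overlapped WT3 in both treatments. KO1 exceeded KO2 by 1.47 ± 0.08 untreated (adjusted p = 4.64e-09 by edgeR) and 1.43 ± 0.10 after IFNG (adjusted p = 3.78e-07) on the log2 scale.

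Other members had other clones at the top. Clec4e was highest in WT1, where its untreated mean of 420.4 ± 56.4 CPM was 2.27-fold that of KO2 and no library of another clone reached any of its libraries. Clec4n was highest in WT2 and lowest in KO2, 3.60-fold apart untreated, and its libraries of KO1 and KO2 overlapped. Clec4d was lowest in KO2, and WT2 and WT3 overlapped at the top, with a 1.88-fold span untreated. Clec7a spanned 1.85-fold and Clec4a3 2.02-fold untreated, Clec7a from KO2 to WT2 and Clec4a3 from KO1 to WT3. The narrowest was Clec4a2, at 1.66-fold untreated, where neighbouring clones in the order overlapped except for WT1 and KO2. For Clec2d, WT1 stood at 4.22 ± 0.591 CPM and WT3 at 2.01 ± 0.564 CPM untreated, 2.096-fold apart, against 1.38-fold after IFNG.

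KO clones were then set against WT clones, the contrast that was known when the genes were chosen, so the values are a description. The fit had no clone term, so each SE treats the libraries of a clone as independent and does not measure the spread between clones. Clec4n was lower by the most, with a log2 fold change of -1.31 ± 0.17 untreated and -1.48 ± 0.13 after IFNG (± SE, 6 KO and 9 WT libraries). For Clec4a1 it was -0.78 ± 0.08 and -1.01 ± 0.06, for Clec4a3 -0.75 ± 0.10 and -0.73 ± 0.11, for Clec4d -0.62 ± 0.12 and -0.61 ± 0.10, and for Clec7a -0.49 ± 0.10 and -0.50 ± 0.10. Clec12a was higher, at 1.08 ± 0.33 and 1.11 ± 0.33, with all KO1 libraries above every WT library, and the KO2 libraries within the WT range untreated and up to its top after IFNG. Clec4e was at -0.44 ± 0.21 and -0.29 ± 0.22, Clec4a2 at 0.26 ± 0.13 and 0.04 ± 0.12 and Clec2d at 0.29 ± 0.22 and -0.10 ± 0.11. The threshold on adjusted p was met by 6 of 9 genes in each treatment, beside 26.6% and 23.9% of all genes tested, and by 0 of 9 in each once the libraries of a clone were summed (5 and 5 at an unadjusted p under 0.05, by edgeR, with 1 and 1 of all genes called), and nothing is read from these counts. Every KO library lay below every WT library for Clec4a1, Clec4a3 and Clec4n untreated, as for 5.10% of all genes tested, and for these and Clec4d and Clec7a after IFNG, as for 4.76%. In RNA from whole cultures, fewer cells with a transcript and less of it per cell cannot be told apart.

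**Figure D3:**
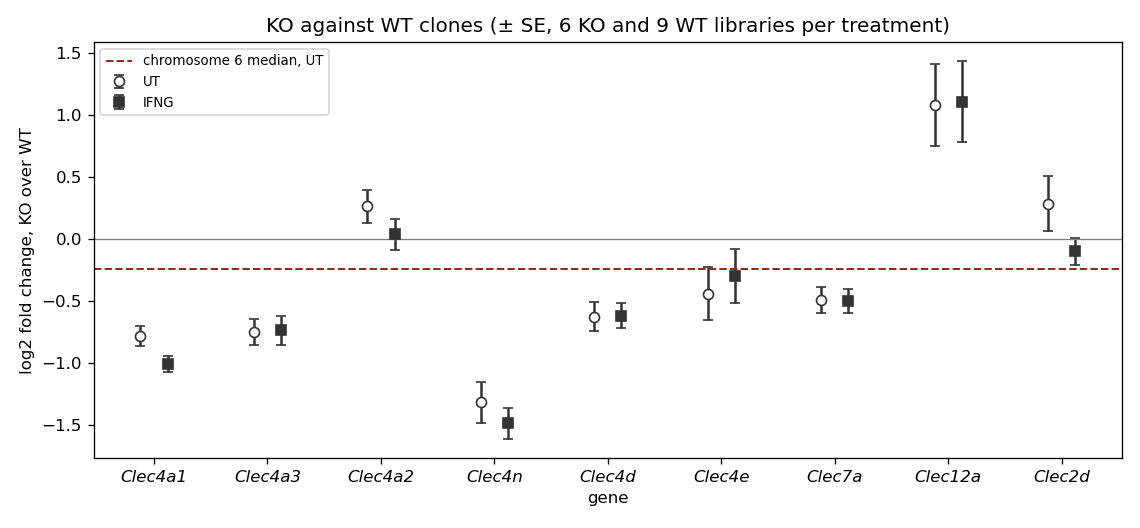
Log2 fold change of KO over WT libraries (y axis) for each lectin gene (x axis), open circles UT and filled squares IFNG, ± SE from a fit without a clone term. The dashed line, at -0.24, is the median KO minus WT difference of the other chromosome 6 genes in UT libraries. Clec4n, Clec4a1, Clec4a3, Clec4d, Clec7a and Clec4e lie below the line and Clec12a, Clec4a2 and Clec2d above it.

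Other genes of chromosome 6 were lower in the KO clones as well. Over 597 other genes of the chromosome with a mean of at least 1 CPM, the median difference from the WT clones on log2(CPM + 0.5), less the median of all genes, was -0.24 in untreated KO1 and -0.27 in untreated KO2. It was -0.23 and -0.26 after IFNG, and between -0.01 and 0.01 in the WT clones, each set against the other 2. Of these genes 78.4% in untreated KO1 and 82.6% in untreated KO2 lay below 0, and 50.8% in WT1. In untreated KO2 no other chromosome had a lower median, the lowest of the other 19 being -0.06 for chromosome 1. In untreated KO1 only chromosome 12 was lower, at -0.35. A shift of similar size, upward, was seen in an unedited clone. Chromosome 17 stood at 0.24 in untreated WT1, at -0.13 in WT2 and -0.11 in WT3, and at 0.19 in KO1 and 0.20 in KO2. WT1 is part of the baseline of each other clone in these values. In 10 Mb stretches of chromosome 6, 13 of 15 medians were negative in each untreated KO clone, 11 in WT1, 6 in WT2 and 4 in WT3. The lowest of these medians was -0.37 in KO1, -0.34 in KO2, -0.16 in WT1, -0.05 in WT2 and -0.04 in WT3. Within 1 Mb of the Clec4 group the median over 11 other genes was -0.07 in untreated KO1 and -0.19 in untreated KO2, and within 1 Mb of the other group, over 14 genes, -0.25 and -0.37. After IFNG these medians were -0.20 and -0.09 for the Clec4 group and -0.26 and -0.41 for the other. The untreated values of the Clec4 group depended on the genes taken, at -0.30 and -0.35 over 56 genes within 2 Mb and -0.22 and -0.29 over the 8 genes within 1 Mb with a mean of at least 5 CPM. Near the other group, the median over the 14 genes was also negative in WT1, at -0.14 untreated and -0.21 after IFNG. In untreated WT2 and WT3 it was 0.09 and 0.10. Over the 9 of at least 5 CPM, untreated WT1 stood at -0.33, KO1 at -0.30 and KO2 at -0.41. Over 22 genes within 2 Mb these were 0.01, -0.24 and -0.34.

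Set against the chromosome, the lectin genes spread to both sides. Relative to the chromosome 6 median, the KO minus WT difference of clone means was -0.97 untreated for Clec4n, -0.55 for Clec4a1, -0.48 for Clec4a3, -0.37 for Clec4d, -0.24 for Clec7a and -0.12 for Clec4e. For Clec12a it was 1.25, for Clec2d 0.58 and for Clec4a2 0.48. The set was chosen on the lower level of Clec4a1 in the KO clones, so the next shares are a description and no test. Of the other chromosome 6 genes, 2.85% had a lower untreated difference than Clec4a1 and 1.51% after IFNG, and for Clec4n these shares were 0.838% and 0.503%. Set this way Clec2d after IFNG turned from -0.09 to 0.16, and Clec4e after IFNG lay at the chromosome median, with 50.9% of the other genes lower. The part of the shift of the whole chromosome in the levels of these genes was not tested, and these settings were chosen after the values had been seen.

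**Figure D4:**
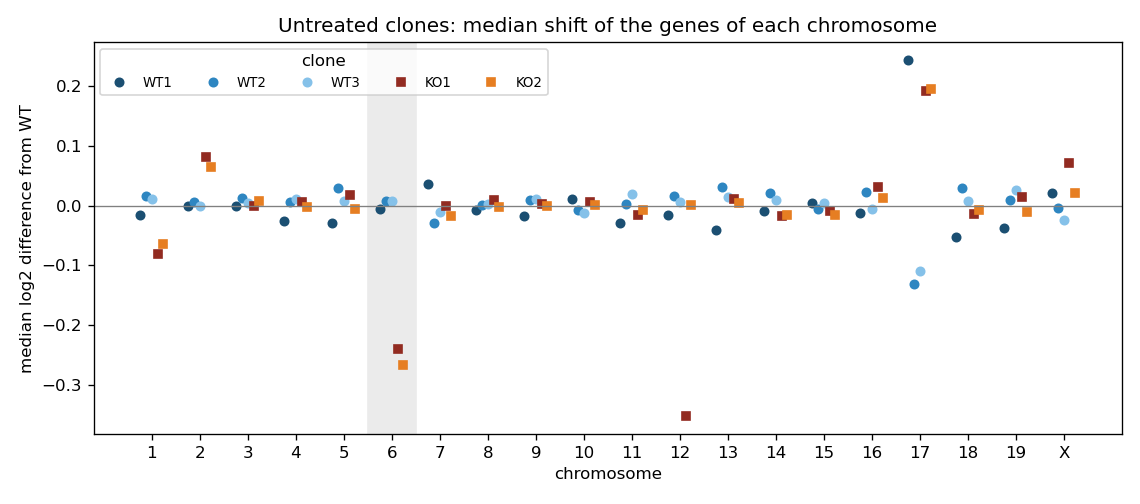
Median log2 difference from the WT clones (y axis, log2(CPM + 0.5), less the median of all genes) of the genes of each chromosome (x axis) in the 5 untreated clones, circles WT and squares KO, with chromosome 6 shaded. On chromosome 6 the KO clones stand at -0.24 and -0.27 and the WT clones within 0.01 of 0. On chromosome 17 WT1 stands at 0.24, KO1 at 0.19 and KO2 at 0.20, and WT2 and WT3 at -0.13 and -0.11.

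The genes whose levels ran most like Clec4a1 over the 30 libraries, on log2(CPM + 0.5), were Mgst1 (Pearson r = 0.97), Dusp16 (0.97), Actr1b (0.96), C1ra (0.95) and Uhrf1bp1l (0.95), of 12336 genes compared. Of these 5, Mgst1, Dusp16 and C1ra are also on chromosome 6, as are 597 of the 12336 genes compared. Mgst1, a glutathione transferase gene, ran from 2.19 CPM in untreated KO2 to 11.04 CPM in IFNG-treated WT2. Among the lectin genes, Clec4a1 ran most like Clec4n (r = 0.90) and Clec7a (0.87), and Clec4n and Clec7a were as close to each other (0.92). Clec4e followed none of the others, its highest r being 0.16 with Clec7a and its lowest -0.53 with Clec12a. The libraries of a clone and the 2 treatments are shared by all genes, so these values describe the 30 libraries and are no test.

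Other lectin-like genes of chromosome 6 were mostly at or near 0. Of 44 listed, 41 were matched by name, and 3 had a mean of at least 1 CPM. Cd69, an early activation antigen, rose in all 5 clones with log2 fold changes from 5.03 in KO2 to 6.999 in KO1 (edgeR), from at or near 0 to at most 10.7 CPM. Klra2, a Ly49 family gene, rose in all 5, from 0.89 in WT1 to 1.27 in WT2. Klrg2, which lies far from both groups on the chromosome, fell by 0.67 on the log2 scale in WT3 (adjusted p = 0.0248 by edgeR) and was not called in the other clones.

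Genes that pass on or restrain the signals of these receptors moved both ways. Of 24 listed partners and adaptors, IFNG called 10 of 24 tested in WT1 (6 higher, 4 lower), 13 of 23 in WT2 (7 and 6), 16 of 21 in WT3 (7 and 9), 12 of 24 in KO1 (6 and 6) and 11 of 24 in KO2 (5 and 6), beside 21.2%, 34.5%, 36.1%, 29.4% and 27.1% of all genes tested. Of the 8 called in all 5 clones, the 4 with the highest mean CPM are described. Lyn, a Src family kinase, rose by 0.53 in WT1 to 0.72 in WT3, and Vav1, an exchange factor, by 0.28 in WT1 to 0.47 in KO1 on the log2 scale. Prkcd, the kinase that activates Card9, ran from -0.62 in WT3 to -0.37 in KO1, and Inpp5d, the SHIP-1 phosphatase that opposes this signalling, from -0.31 in WT3 to -0.18 in KO1, lower in all 5 clones.

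Genes listed as C-type lectins encoded elsewhere in the genome were counted in the same way. The list also holds Selplg, which encodes a mucin-like ligand of selectins and no lectin domain, and Clec16a, named as a lectin but known as an endosomal ubiquitin ligase. IFNG called 3 of 11 tested in WT1, 5 of 11 in WT2, 6 of 12 in WT3, 2 of 12 in KO1 and 3 of 11 in KO2, beside the same shares of all genes. Of 27 listed, 10 had a mean of at least 1 CPM, and 1 was called in all 5 clones. That was Thbd, thrombomodulin, with a log2 fold change from -1.20 in KO1 to -0.80 in WT3 (edgeR). Clec10a, a galactose-type lectin gene, rose in WT1, WT2, WT3 and KO2, by 0.26 to 0.61, and Clec16a rose in WT2, WT3 and KO1. Colec12, the most abundant of these by CPM at a mean of 642, fell in WT2 and WT3, and Cd93 fell in WT3 and KO2. Clec5a, Ly75 and Selplg were each called in 1 clone, and Mgl2 and Mrc1, the mannose receptor gene, in none, with log2 fold changes of Mrc1 from -0.14 to 0.10.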

How the data were processed

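The authors trimmed adapters (BBDuk), mapped read pairs on mm10 by HISAT2 2.1.0, kept uniquely aligned fragments and merged technical replicates, and the deposited table holds raw counts per gene from featureCounts 1.6.2. Per the file headers, fragments were counted on exons in reverse-stranded mode with Gencode vM18 gene models, and a fragment over several genes was counted for each. The methods name a RefSeq annotation instead. The other deposited tables hold the same counts for subsets of these libraries and were not used. The columns of WT2 and WT3 carry other clone names and were matched through the separate tables of those clones, so an exchange of these clone names would exchange their values. The members and gene lists were chosen with earlier results of these data known. Counts were analysed as deposited with edgeR 4.0.16 (R 4.3.3) by the quasi-likelihood test, filterByExpr and TMM, with Benjamini-Hochberg adjustment over all genes and a threshold of 0.05, in 14 comparisons. The SE of a log2 fold change is its size over the root of F. Levels are CPM with TMM factors over 14870 genes, and log2 levels add 0.5. All 9 members passed the filter in every comparison. On simulated counts with 200 changed genes, edgeR recovered 190 of them for the response of WT1 over 14088 genes, with 16 false calls, 168 for the difference between clones over 14870 genes, with 11, and 179 for that by genotype over 14682 genes, with 5. Another motif searched in the promoters is not reported here. The named genes were all members, the 5 genes most like Clec4a1 by Pearson r, listed lectins averaging 1 CPM or more, and the 4 signalling genes called in most clones, with ties broken by mean CPM. Alternatives were DESeq2 1.42.0, RLE factors, no filter, at least 10 counts in every library, 1 fit over all 30 libraries, factors from chromosome 6 genes, a clone term, counts summed per clone, and leaving out each library or clone in 85 fits.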

Additional observations from a re-analysis of the deposited data

Results flagged for a closer look

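The response of Clec4a1 to IFNG differed between the 5 clones (adjusted p = 0.0129 by edgeR's quasi-likelihood test of the clone by treatment terms over 30 libraries). Its response was also smaller in the KO clones than in the WT clones, with a KO response minus WT response of -0.22 on the log2 scale (adjusted p = 0.0209 by the same test). Each is listed here because a test of the difference itself passed the threshold. Both tests use the KO and WT counts of Clec4a1 on which the set was chosen, so neither p is independent of that choice. Both calls were lost without WT3 (adjusted p = 0.130 and 0.174) or KO1 (0.530 and 0.597), and the latter also without WT2 (0.125). The clones are 3 WT and 2 KO, and the libraries of a clone are not independent clones.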

How the results depend on the processing

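No paired analysis was possible because the columns of the count table carry no replicate numbers, so the planned fits with the replicate as a block were not run. Of 9 members, the count called fell from 5 to 2 with DESeq2 for the response of KO2, and rose from 2 to 8 for the response over all clones with 1 fit over all libraries, with a clone term, or with counts summed per clone. With Clec2d gained, it rose from 1 to 2 with DESeq2 and without a filter for the difference between clones. It also rose, by the same gene, from 1 to 2 without a filter for the difference by genotype. It went from 5 to 3 with DESeq2 for untreated KO1 against KO2, and from 6 to 0 with counts summed per clone for KO against WT in each treatment (5 of 9 at an unadjusted p under 0.05 in each, by edgeR). Summing left 5 samples for KO against WT in each treatment and 10 for the response over all clones. The main fit over all clones had no clone term, and each setting that gave 8 took the clones into account. The causes of these changes were not tested. The other 68 counts stayed within 1.5 times. Signs changed for Clec4a3 by genotype with RLE factors (7.82e-04) and, relative to the other genes of chromosome 6, for KO against WT after IFNG of Clec4e (0.0044) and Clec2d (0.16).

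Leaving out 1 library or clone gave 4 to 5 calls for WT1, 6 to 7 for WT2, 6 to 7 for WT3, 4 to 7 for KO1, 2 to 6 for KO2, 2 to 4 over all clones, 0 to 1 for the difference between clones and 0 to 2 for that by genotype. It gave 7 to 8 among untreated WT clones, 6 to 8 among them after IFNG, 4 to 6 and 4 to 7 for KO1 against KO2, and 5 to 7 and 5 to 6 for KO against WT. Log2 fold changes that changed sign in this way ran from -0.19 to 0.043 for Clec4a2 and from -0.11 to 0.018 for Clec4d in WT1, from -0.024 to 0.12 for Clec4a3 and from -0.094 to 0.093 for Clec4a2 in WT3, from -0.18 to 0.0059 for Clec4d in KO1, and from -0.042 to 0.054 for Clec4a3 over all clones. By genotype they ran from -0.13 to 0.094 for Clec4a3, from -0.055 to 0.043 for Clec4d, from -0.046 to 0.11 for Clec12a and from -0.11 to 0.075 for Clec7a. For Clec2d in untreated KO1 against KO2 they ran from -0.14 to 0.028.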
